A study of Homo sapiens with 8 samples.

Results

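The polyamine genes described here are 9 genes whose products make, break down or restrain the synthesis of putrescine, spermidine and spermine: ODC1, AMD1, SRM, SMS, OAZ1, OAZ2, AZIN1, SAT1 and SMOX. They were taken by gene name from the deposited table of read counts, which held all 9 of them among 10105 genes. The study compared wild-type (WT) HEK293T cells, a human embryonic kidney line, with an XRN1-null line made from HEK293T by CRISPR/Cas9 editing with a guide against XRN1 exon 6. XRN1 is the cytoplasmic exonuclease that degrades decapped mRNA from its 5′ end. Messenger RNA (RNA-Seq) and ribosome-protected mRNA fragments (Ribo-Seq, here called footprints) were counted per gene in 2 biological replicates of each genotype, so 8 libraries in all. The cells were harvested 24 h after plating on 15 cm dishes, and the sample titles name no treatment. A single XRN1-null line was used, so the edit and any other difference between the lines cannot be told apart. The question put to these 9 genes was whether their mRNA, their footprints, or the footprints relative to the mRNA (translation efficiency, TE) differed between the genotypes.

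Polyamines are small positively charged molecules that bind RNA and are needed for growth. Ornithine decarboxylase (ODC1) makes putrescine, S-adenosylmethionine decarboxylase (AMD1) makes the aminopropyl donor, and the synthases SRM and SMS build spermidine and then spermine from them. SAT1 acetylates polyamines for export or oxidation, and SMOX oxidises spermine back to spermidine. Antizymes (OAZ1, OAZ2) bind ODC1 and send it to the proteasome, while antizyme inhibitor (AZIN1), an inactive relative of ODC1, takes antizyme away from it. Several of these mRNAs are known to be read by ribosomes in a polyamine-dependent way: antizyme by a programmed frameshift, AMD1 by a short upstream reading frame that encodes a stalling peptide, and AZIN1 by an upstream conserved coding region.

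The frameshift is the defining sequence of the antizymes, so both sites are shown. A ribosome that reads on in the starting frame meets a TGA stop (capitals) and makes only a short peptide. One that slips forward by 1 base makes full-length antizyme. The reference annotation (GENCODE 44 on GRCh37, the hg19 build to which the reads were mapped) records the slip as 1 skipped base in exon 2, the first letter of the stop. The OAZ1 site lay at chr19:2271428-2271457 (plus strand, skipped base 2271442) after 68 codons, and the OAZ2 site at chr15:64983699-64983728 (minus strand, skipped base 64983714) after 32 codons.
OAZ1: ctcggtggtgctccTGAtgcccctcaccca
OAZ2: ctctgtggtgctccTGAtgcccctcaccca
The windows were identical at 29 of 30 bases. Of the OAZ1 coding sequence, 204 nt lay before the skipped base and 480 nt after it, and for OAZ2 these were 96 and 471 nt. Counts per gene add footprints on both sides of the stop, so they do not separate ribosomes that had shifted frame from those that had not.

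Most members had an upstream ATG, and the share of all genes with a complete upstream frame was not computed. In the reference transcripts, 6 of the 9 genes had an ATG in the 5′ UTR, against 37.4% of all 9322 protein-coding genes with a reference transcript. AMD1 had 1 upstream frame of 7 codons with its stop, ODC1 had 1 of 11 codons, SAT1 had 1 of 5 codons, AZIN1 had 3 and OAZ2 had 2. SMS had an upstream ATG but no complete upstream frame, and OAZ1, SRM and SMOX had no upstream ATG. Transcripts annotated as targets of nonsense-mediated decay existed for 6 members (ODC1, OAZ1, AZIN1, AMD1, SRM and SAT1), against 50.2% of the same 9322 genes. Gene-level counts do not separate these transcripts from the coding ones.

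RNA-Seq libraries held 33757487 to 38145433 counts and Ribo-Seq libraries 1921641 to 4399542 counts over the table's genes. The RNA-Seq totals exceed the mapped reads that the study reports from paired-end sequencing, and how mates were counted was not given in the sources used here. The footprint values were the less precise, with a larger SE than mRNA for each member. Levels are counts per 1000000 of the TMM-scaled library total (CPM), and differences are log2 fold changes of XRN1-null against WT from edgeR's quasi-likelihood test. FDR is the Benjamini-Hochberg adjusted p over all 10105 genes, and a gene was called at an FDR below 0.005, the study's threshold. XRN1 itself, which checks the labels, had 1187 and 1084 mRNA counts in WT and 10655 and 9834 in the XRN1-null line. Its footprints were 66 and 217 in WT and 91 and 59 in the XRN1-null line, in libraries of different depth. XRN1 mRNA was thus higher in the null line, by 3.01 on the log2 scale (SE 0.0797, FDR 1.92e-06), with a footprint difference of -1.08 (SE 0.201, FDR 0.00641) that was not called. Counts over the whole gene do not measure the edit itself.

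Of the 9 members, 1 rose in mRNA (SAT1), 3 fell (SMS, SRM and ODC1) and 5 did not pass the test. The background was high: 22.9% of all genes were called higher and 23.2% lower, 46.1% in all, so the share of members called was close to that of the table. The median member difference was -0.12, against -0.01 for all genes, and 6 members had an unadjusted p under 0.05 in edgeR's quasi-likelihood test. The mRNA of the members separated well between the libraries: both XRN1-null libraries lay below both WT libraries for 5 genes and above them for 3, with overlap for OAZ2 alone. That pattern was frequent across the table too, with 43.7% of all genes lower and 41.0% higher in this sense. In bulk samples a smaller number of expressing cells and less RNA per cell cannot be told apart.

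**Figure D1:**
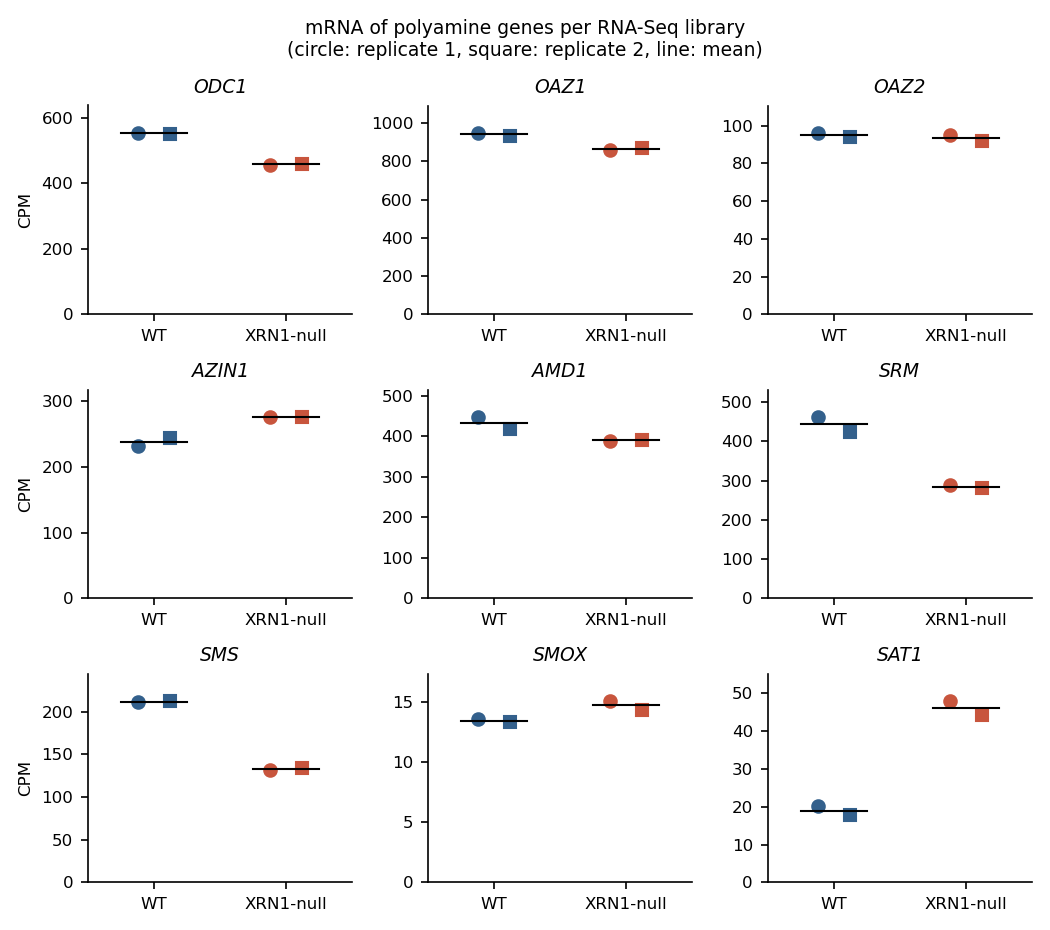
Messenger RNA of the 9 polyamine genes in CPM (y axes, linear, from 0, a scale for each gene) in the WT and XRN1-null RNA-Seq libraries. Circles are replicate 1, squares replicate 2 and lines the means of 2 libraries. SAT1 sits near 20 CPM in WT and above 44 CPM in the XRN1-null line, while SRM and SMS sit lower in both XRN1-null libraries.

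No member was called in footprints, where 0.633% of all genes were called higher and 1.14% lower, 1.77% in all. The study reported more genes changed in mRNA and in footprints than were called here, with an edgeR test it does not name. A gene not called here could therefore pass another test. The median member difference in footprints was -0.05, against -0.0033 for all genes, and 4 members (AZIN1, SRM, SMS and SAT1) had an unadjusted p under 0.05 in edgeR's quasi-likelihood test. SAT1 was called higher and SRM lower in 4 of 8 other processing choices. These were edgeR's likelihood ratio test, its exact test, a replicate block, and an FDR of 0.05, which is a looser cut on the same fit. With the replicate block SRM differed by -0.72 (FDR 0.000107) and SAT1 by 1.00 (FDR 0.000648). Both XRN1-null Ribo-Seq libraries lay below both WT libraries for OAZ2, SRM and SMS and above them for AZIN1 and SAT1, and 32.3% and 32.1% of all genes did so. The other 4 members overlapped.

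**Figure D2:**
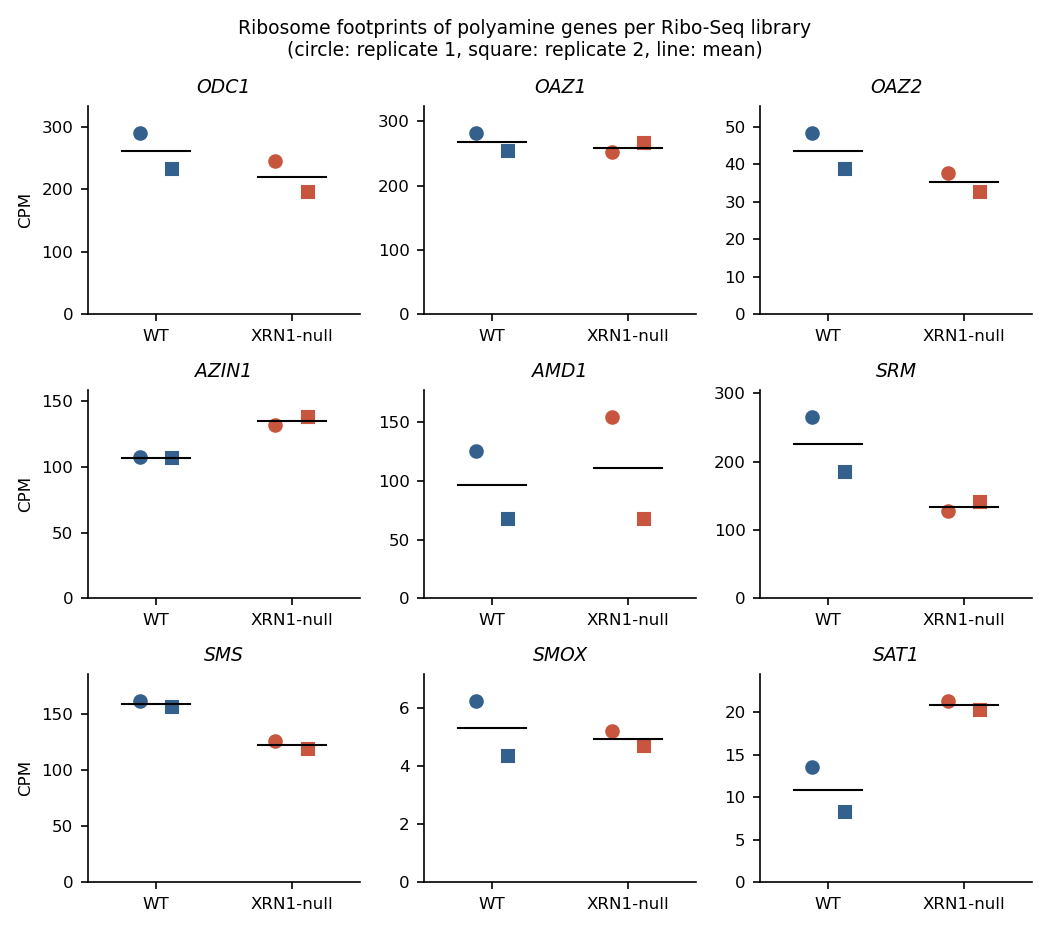
Footprints of the 9 polyamine genes in CPM (y axes, linear, from 0, a scale for each gene) in the WT and XRN1-null Ribo-Seq libraries, with circles for replicate 1, squares for replicate 2 and lines for the means of 2 libraries. AMD1 differs more between replicates (126 and 67.1 CPM in WT, 154 and 67.7 CPM in the XRN1-null line) than between genotypes.

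No member was called in TE either, in a table where 0.0495% of genes were called higher and 1.78% lower, 1.83% in all. With RiboDiff, the study reported more genes changed in TE than were called here. The median member TE difference was 0.04, against 0.0081 for all genes, and only SMS had an unadjusted p under 0.05 in edgeR's quasi-likelihood test. No member passed the test in TE under any of the 9 other processing choices or when any of the 8 libraries was left out.

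**Figure D3:**
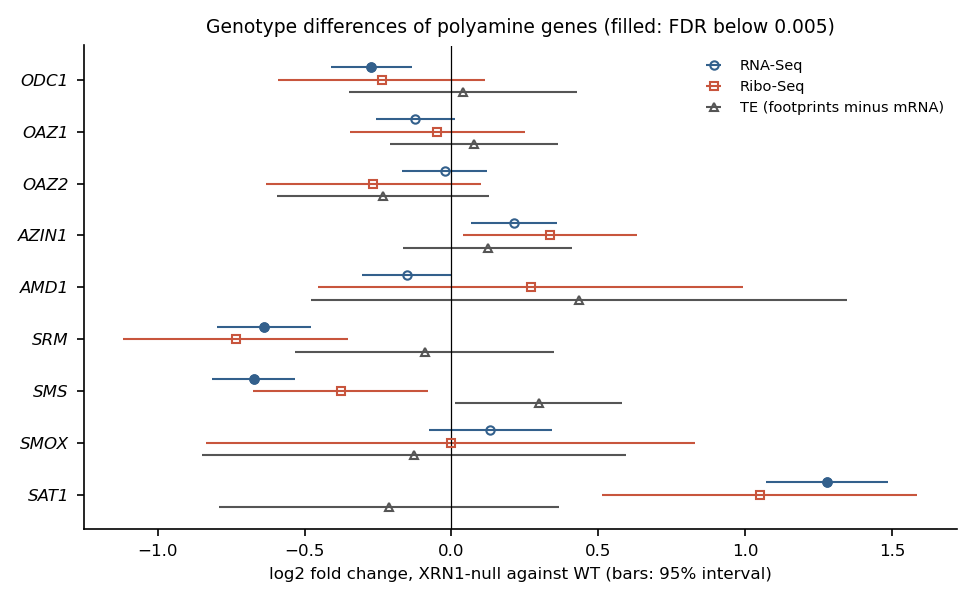
Log2 fold change of XRN1-null against WT (x axis) for each polyamine gene (y axis) in RNA-Seq (circles), Ribo-Seq (squares) and TE (triangles), with 95% intervals from edgeR. Filled symbols mark an FDR below 0.005, which only the mRNA values of SAT1, SMS, SRM and ODC1 reached. The TE interval of AMD1 runs from -0.48 to 1.35.

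Among the synthesis enzymes, both aminopropyl transferases fell in mRNA. SMS, on chromosome X (GRCh37, 21958827 to 22012955), had 211 and 213 CPM of mRNA in the WT libraries and 131 and 135 CPM in the XRN1-null libraries. The groups did not overlap, and the difference was -0.67 (SE 0.0605, FDR 7.21e-05). Its footprints were 162 and 157 CPM in WT and 126 and 119 CPM in the XRN1-null line. The XRN1-null libraries again lay below WT, by less than in mRNA, and the footprint difference of -0.38 (SE 0.136, FDR 0.0794) did not pass. It passed without WT Ribo-Seq replicate 2 (-0.39, FDR 0.00437) and not without any other Ribo-Seq library. The SMS TE difference was 0.30 (95% interval 0.01 to 0.58, unadjusted p = 0.0416, FDR 0.196 in edgeR), so a difference between the changes of its mRNA and footprints was not shown.

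SRM, on chromosome 1 (GRCh37, 11114641 to 11120077), had 462 and 424 CPM of mRNA in WT and 288 and 281 CPM in the XRN1-null line. The XRN1-null values were lower in both libraries, by -0.64 on the log2 scale (SE 0.0687, FDR 0.00016). SRM footprints were 266 and 185 CPM in WT and 128 and 141 CPM in the XRN1-null line. The groups were apart here as well, although the WT replicates differed by 0.52 on the log2 scale, and the footprint difference was -0.74 (SE 0.176, FDR 0.0179). It was -0.46 without WT Ribo-Seq replicate 1 (FDR 9.51e-05) and -0.98 without WT Ribo-Seq replicate 2 (FDR 3.88e-15), where the fit took its spread from the XRN1-null pair. With the spread taken from the WT pair it did not pass, at -0.67 without XRN1-null Ribo-Seq replicate 1 (FDR 0.168) and -0.81 without replicate 2 (FDR 0.076). The SRM TE difference was -0.09 (95% interval -0.53 to 0.35).

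ODC1, the first and most tightly controlled enzyme of the pathway, lies on chromosome 2 (GRCh37, 10580094 to 10588453). Its mRNA was 554 and 551 CPM in WT and 455 and 460 CPM in the XRN1-null line. The replicates were close and the groups apart, and the difference of -0.27 (SE 0.0591, FDR 0.00455) passed only just. The call was lost without XRN1-null RNA-Seq replicate 1 (-0.27, FDR 0.127) or replicate 2 (-0.28, FDR 0.108), where the lone sample is taken to vary like the WT pair, and under 3 of 9 other processing choices. ODC1 footprints were 291 and 232 CPM in WT and 245 and 196 CPM in the XRN1-null line, an overlap, with a difference of -0.24 (95% interval -0.59 to 0.12). That difference was -0.06 without WT Ribo-Seq replicate 1 (FDR 0.662), -0.38 without WT Ribo-Seq replicate 2 (FDR 0.00117), -0.41 without XRN1-null Ribo-Seq replicate 1 (FDR 0.459) and -0.09 without XRN1-null Ribo-Seq replicate 2 (FDR 0.897).

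An E-box (CACGTG, a palindrome bound by basic helix-loop-helix factors) was searched in the 250 bases before RefSeq start sites on GRCh38.p14, with the values of SRM and ODC1 already seen. Of the 7 members with a promoter sequence, 2 held the motif, against 11.7% of 7897 genes of the table with a promoter sequence. Every RefSeq start of a gene was searched, and the starts were not compared with the 5′ ends of the reference transcripts. Each match is shown with the motif in capitals. For SRM it lies at chr1:11060200-11060229 (minus strand, 199 bases before a start), and for ODC1 at chr2:10448024-10448053 (minus strand, 29 bases before a start).
SRM: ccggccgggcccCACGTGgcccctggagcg
ODC1: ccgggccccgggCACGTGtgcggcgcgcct
These are letter matches, and binding was not measured.

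AMD1, on chromosome 6 (GRCh37, 111195973 to 111220082), had 448 and 418 CPM of mRNA in WT and 389 and 390 CPM in the XRN1-null line. Both XRN1-null libraries lay below WT, by -0.15 on the log2 scale (SE 0.0647, FDR 0.0698), which did not pass. The value was -0.20 without WT RNA-Seq replicate 2 (FDR 2.14e-05), and did not pass without WT replicate 1 (-0.08, FDR 0.0655) or either XRN1-null RNA-Seq library (-0.15 in both, FDR 0.386 and 0.378). AMD1 footprints were 126 and 67.1 CPM in WT and 154 and 67.7 CPM in the XRN1-null line, from 241, 292, 621 and 217 counts. Replicate 1 was about as far above replicate 2 in each genotype, and the genotypes overlapped. The footprint difference of 0.27 had a 95% interval of -0.45 to 0.99, and TE differed by 0.44 (95% interval -0.48 to 1.35). The direction depended on which library was left out. The footprint difference was 0.76 without WT Ribo-Seq replicate 1 and -0.13 without WT Ribo-Seq replicate 2. It was -0.47 without XRN1-null Ribo-Seq replicate 1 and 0.71 without XRN1-null Ribo-Seq replicate 2. With replicate number added to the fit of all 4 Ribo-Seq libraries it was 0.16 (FDR 0.482).

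The replicate difference of AMD1 was large in both genotypes. It was looked at after the AMD1 values had been seen, and is given as a description. Among the 3896 genes with at least 100 footprints in every Ribo-Seq library, the log2 difference of replicate 1 minus replicate 2 was 0.90 for AMD1 in WT (place 12) and 1.18 in the XRN1-null line (place 2). By the smaller of both values, AMD1 took place 1 with TRIM56 level to 2 decimals. Places rank the signed difference, so genes higher in replicate 2 stand low whatever their size. The central 90% of these genes ran from -0.53 to 0.43 in WT and from -0.23 to 0.24 in the XRN1-null line. The AMD1 mRNA of the same replicate numbers differed by only 0.10 and -0.0022. Total footprint counts of replicates 1 and 2 were 1921641 and 4399542 in WT, and 3971591 and 3211307 in the XRN1-null line, and the part of depth was not tested. The genes next in order were TRIM56 (1.30 and 0.90), NFATC2IP (1.19 and 0.84) and IFRD1 (1.16 and 0.71). ODC1 had 0.32 in both genotypes (place 23), whereas SMS (0.05 and 0.09), AZIN1 (0.0066 and -0.07) and OAZ1 (0.15 and -0.08) stayed near 0. SRM had 0.52 in WT and -0.14 in the XRN1-null line. How replicates 1 and 2 differed in culture or preparation was not given in the sources used here, and the part of either in these values was not tested.

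**Figure D4:**
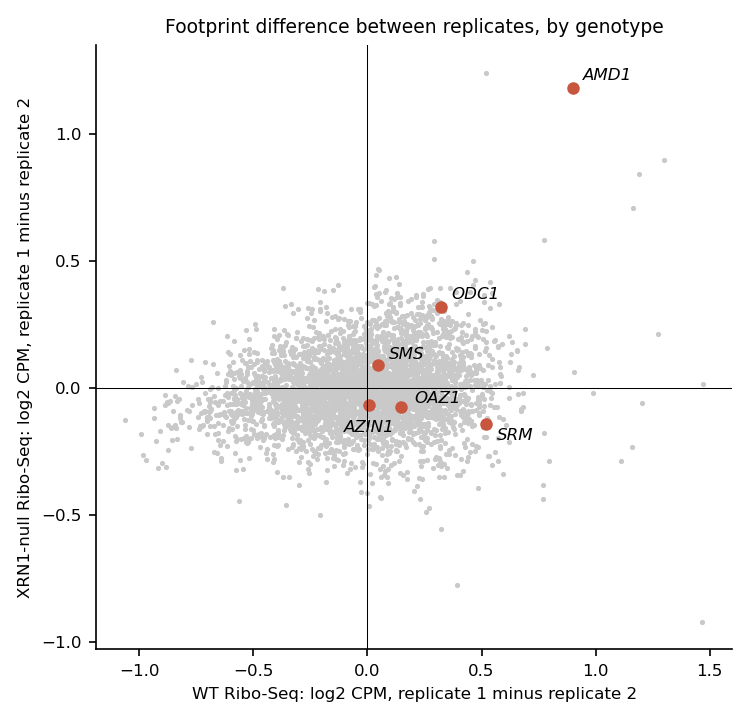
Log2 difference in footprint CPM between replicate 1 and replicate 2 in WT (x axis) and XRN1-null cells (y axis) for 3896 genes with at least 100 footprints in every library (grey) and the 6 polyamine genes among them (red, named). AMD1 lies at 0.90 and 1.18 among a few outlying genes, and ODC1 lies at 0.32 on both axes.

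Among the regulators of ODC1, neither antizyme passed the test in any of the 3 comparisons. OAZ1, on chromosome 19 (GRCh37, 2269508 to 2273489), had 950 and 932 CPM of mRNA in WT and 858 and 870 CPM in the XRN1-null line. The XRN1-null libraries were slightly below WT, and the difference of -0.12 (95% interval -0.26 to 0.01, FDR 0.0929) did not pass; it did without WT RNA-Seq replicate 2 (-0.14, FDR 0.000696) but not without any of the other RNA-Seq libraries. OAZ1 footprints were 282 and 255 CPM in WT and 252 and 266 CPM in the XRN1-null line. They overlapped, with intervals of -0.35 to 0.25 for the footprint difference and -0.21 to 0.36 for TE.

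OAZ2, on chromosome 15 (GRCh37, 64979772 to 64995480), had 96.2 and 94.1 CPM of mRNA in WT and 95.1 and 92.1 CPM in the XRN1-null line. The groups overlapped and the 95% interval of the difference was -0.17 to 0.12. OAZ2 footprints were 48.4 and 38.8 CPM in WT and 37.7 and 32.8 CPM in the XRN1-null line. The XRN1-null libraries lay just below WT, with a difference of -0.27 (95% interval -0.63 to 0.10) and a TE difference of -0.23 (95% interval -0.59 to 0.13). Neither passed the test.

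AZIN1, on chromosome 8 (GRCh37, 103838339 to 103906092), had 233 and 244 CPM of mRNA in WT and 277 and 276 CPM in the XRN1-null line. Its footprints were 107 and 107 CPM in WT and 132 and 138 CPM in the XRN1-null line. In both assays each XRN1-null library was above each WT library, but neither the mRNA difference of 0.21 (SE 0.0624, FDR 0.0176) nor the footprint difference of 0.34 (SE 0.136, FDR 0.108) passed at 0.005. The mRNA value passed without WT RNA-Seq replicate 1 (0.20, FDR 0.000128) or replicate 2 (0.25, FDR 5.22e-06), and not without XRN1-null RNA-Seq replicate 1 (0.21, FDR 0.201) or replicate 2 (0.21, FDR 0.195). After thinning of the mRNA counts to footprint depth it was 0.13 (FDR 0.222). The TE interval was -0.17 to 0.41.

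Among the catabolic enzymes, SAT1 had the largest fold of the 9 members. SAT1, the acetyltransferase on chromosome X (GRCh37, 23801290 to 23804327), had 20.2 and 17.8 CPM of mRNA in WT and 48.0 and 44.2 CPM in the XRN1-null line. Both XRN1-null libraries stood well clear of WT, a 2.43-fold rise (log2 1.28, SE 0.0891, FDR 2.49e-05) at percentile 97.3 of all genes. SAT1 footprints were 13.5 and 8.27 CPM in WT and 21.4 and 20.3 CPM in the XRN1-null line, from 26, 36, 86 and 65 counts. They were higher in both XRN1-null libraries, by 1.05 on the log2 scale (SE 0.246, FDR 0.0169). This passed without WT Ribo-Seq replicate 1 (1.34, FDR 3.96e-05) and not without WT Ribo-Seq replicate 2 (0.63, FDR 0.0973) or either XRN1-null Ribo-Seq library (1.00 and 1.07, FDR 0.039 and 0.0169). With so few footprints the TE interval ran from -0.79 to 0.37. SAT1 mRNA is known to be spliced to a form with a premature stop when polyamines are low, and counts per gene include that form.

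SMOX, the spermine oxidase on chromosome 20 (GRCh37, 4101627 to 4168394), was the member with the fewest counts. It had 13.5 and 13.3 CPM of mRNA in WT and 15.1 and 14.3 CPM in the XRN1-null line. The XRN1-null values were just above WT, and the interval of the difference was -0.08 to 0.34. SMOX footprints numbered 12 and 19 in WT and 21 and 15 in the XRN1-null line. At that depth footprint differences from -0.84 to 0.83 on the log2 scale lay within the 95% interval.

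Levels of different genes were compared as CPM per kb of the deposited gene width. In WT mRNA the order was OAZ1 (797 ± 10.3, SD, n = 2), SRM (348 ± 21.3), ODC1 (210 ± 0.705), AMD1 (120 ± 5.94), SMS (115 ± 0.788), AZIN1 (54.3 ± 1.86), OAZ2 (49.2 ± 0.781), SAT1 (16.0 ± 1.40) and SMOX (5.77 ± 0.0757). OAZ1 mRNA thus outranked ODC1 and lay at percentile 99.2 of all genes, while OAZ2 lay below ODC1 and SMOX lay at percentile 19.4. Only AMD1 and SMS overlapped between their libraries. In XRN1-null mRNA the order was the same with no overlap, SMS having 72.3 CPM per kb against 108 for AMD1, and SAT1 having 38.8 (percentile 79.2, from 52.2 in WT). In WT footprints the order was OAZ1 (227), SRM (177), ODC1 (99.6), SMS (86.6), AMD1 (26.6), AZIN1 (24.4), OAZ2 (22.6), SAT1 (9.19) and SMOX (2.28) in CPM per kb. AMD1, AZIN1 and OAZ2 overlapped there with their neighbours. AMD1 stood below SMS on this scale, which divides by the whole gene width, and the coding share of the reference transcript was 29.3% for AMD1 and 64.5% for SMS.

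Footprints per mRNA were low for the members. The ratio of Ribo-Seq CPM to RNA-Seq CPM had a median of 0.820 over all genes in WT, and all 9 members lay below the middle of the table, at a median percentile of 17.4. AMD1 had the lowest WT ratio of the 9, 0.223 (0.150 to 0.301 over the 4 combinations of libraries, percentile 2.77). OAZ1 followed at 0.285 (0.268 to 0.303, percentile 5.70), with a range that overlapped that of AMD1. The others in WT were SMOX at 0.396, AZIN1 at 0.449, OAZ2 at 0.459, ODC1 at 0.473, SRM at 0.508, SAT1 at 0.574 and SMS at 0.752. In XRN1-null cells the median of all genes was 0.797, and 8 of 9 members lay below it. SMS was the exception at 0.921 (percentile 58.9), and AMD1 (0.285) and OAZ1 (0.300) again had the lowest ratios of means. The AMD1 range (0.174 to 0.396) spanned those of OAZ1 (0.290 to 0.310) and SMOX (0.311 to 0.364).

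**Figure D5:**
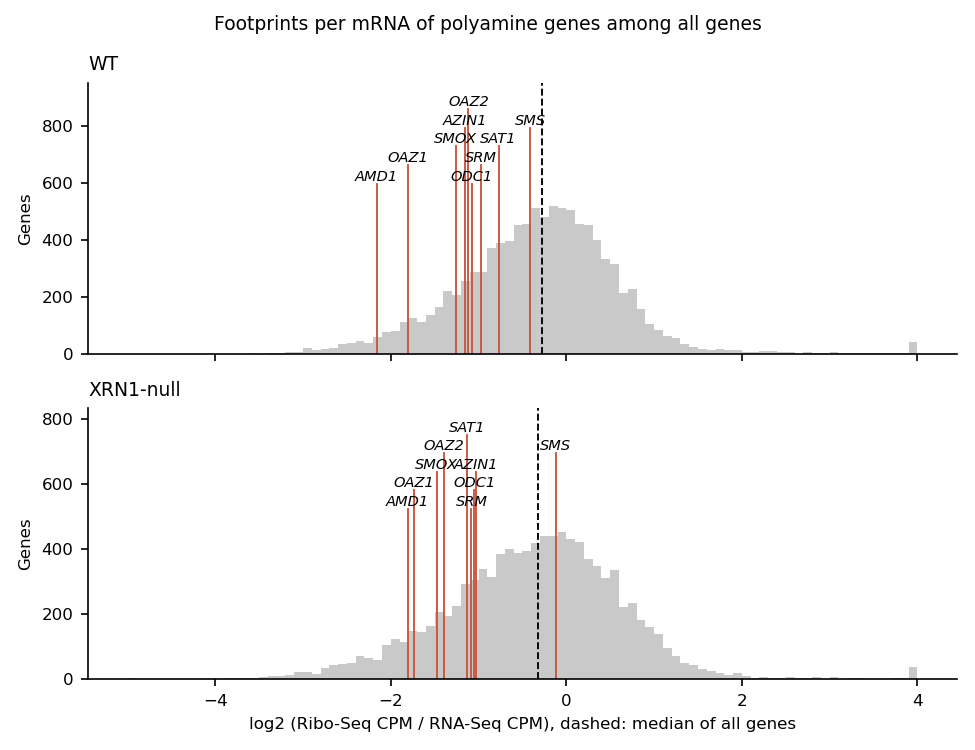
Log2 ratio of Ribo-Seq CPM to RNA-Seq CPM (x axis) against the number of genes (y axis) for all 10105 genes (grey, values above 4 drawn at 4) in WT and XRN1-null cells, with the 9 polyamine genes as red lines and the median of all genes dashed. All members lie left of the median in WT, and all but SMS do so in the XRN1-null line.

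Footprints come from coding sequence and mRNA reads from the whole transcript, so this ratio falls with the coding share of a transcript. The coding share was 29.3% for AMD1 and OAZ2, 32.0% for AZIN1 and 76.9% for SMOX, against a median of 48.7% for the genes with a reference transcript. With footprints taken per coding kb and mRNA per transcript kb, over 9322 genes, all 9 members were still below the middle in both genotypes. In WT, OAZ1 was then lowest (percentile 3.60), followed by SMOX (5.03), SRM (9.56), AMD1 (11.4) and ODC1 (14.6), and OAZ2 was highest (44.1). In XRN1-null cells AMD1 lay at percentile 23.8 and OAZ1 remained below it.

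The genes most like ODC1 over the 8 libraries, by Pearson correlation of log2(CPM + 0.5) centred within each assay, were EN2 (r = 0.998), B4GALT7 (r = 0.993) and EDF1 (r = 0.993). Those most like AMD1 were ZBTB34 (r = 0.990), LIFR (r = 0.974) and STX16-NPEPL1 (r = 0.965). These 8 libraries share the replicate differences described above, and the 6 genes are the highest of the whole table, so the values only say whose pattern was nearest. EN2 footprints, for example, numbered 32 and 50 in WT and 49 and 28 in the XRN1-null line.

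A further 33 genes of polyamine-related pathways were looked up, and 22 were in the table. In mRNA 1 rose, 6 fell and 15 did not pass, with a median difference of -0.07. Those 7 of 22 stand beside the 46.1% of all genes called. The number falling was 2 without XRN1-null RNA-Seq replicate 1 and 3 without replicate 2, and the number rising was 5 without WT RNA-Seq replicate 1 and 6 without replicate 2. In footprints none of the 22 passed edgeR's quasi-likelihood test (4 at an unadjusted p under 0.05), and in TE 1 fell.

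Of the 5 precursor genes in the table, MAT2A and MAT2B fell. They encode the catalytic and regulatory subunits of methionine adenosyltransferase, which makes the S-adenosylmethionine that AMD1 uses. MAT2A mRNA differed by -0.49 (FDR 0.000603) and MAT2B by -0.35 (FDR 0.00248). Of the 5 genes of methionine salvage, which recycles the by-product of SRM and SMS, the dehydratase APIP (-0.76, FDR 0.000128) and the dioxygenase ADI1 (-0.42, FDR 0.00113) fell in mRNA while the isomerase MRI1 rose (0.58, FDR 0.000177). MTAP and ENOPH1 did not pass.

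MRI1 was also the only one of the 22 called in TE. It had 78.1 and 78.5 CPM of mRNA in WT and 120 and 114 CPM in the XRN1-null line. Its footprints went from 118 and 109 CPM in WT to 94.1 and 94.3 CPM in the XRN1-null line. The mRNA was higher and the footprints were lower in each XRN1-null library, and the TE difference was -0.84 (SE 0.128, FDR 0.00233). The call was lost when WT RNA-Seq replicate 2 or any of the 4 XRN1-null libraries was left out, and when the mRNA counts were thinned to footprint depth.

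Spermidine also supplies the hypusine of the translation factor EIF5A, added by DHPS and DOHH. Of the 4 hypusine genes in the table, EIF5A fell in mRNA, with 44631 and 42716 counts in WT and 29910 and 31037 in the XRN1-null line. The XRN1-null counts were lower in libraries that were not shallower, by -0.69 on the log2 scale (SE 0.0579, FDR 5.36e-05). The EIF5A footprint difference was -0.56 (SE 0.127, FDR 0.0154) and its TE difference 0.13 (95% interval -0.16 to 0.43). DHPS mRNA differed by 0.37 (FDR 0.00716) and DOHH mRNA by 0.15 (FDR 0.213), and neither passed. Of the 5 transport genes, only the vesicular polyamine carrier SLC18B1 was called, lower by -0.36 in mRNA (FDR 0.00331). None of the 2 genes of oxidation and acetylation (PAOX, SAT2) nor the testis antizyme OAZ3 was called in mRNA, footprints or TE in the reported fits.

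Some counts could hold reads of other loci. Processed copies are annotated for AMD1 (4), SRM (3), ODC1 (1), OAZ1 (1) and SMS (1), and genes overlapping on the same strand for ODC1 (the snoRNA SNORA80B), OAZ1, AZIN1 and SAT1. How the counting treated shared and overlapping reads was not given in the sources used here, so the values of these genes are uncertain to that extent.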

How the data were processed

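The analysed table holds deposited whole-number read counts per gene and library, with a gene width. Per the study's methods the authors first took out rRNA-derived reads (Bowtie2), mapped the rest to hg19 with TopHat2, counted reads per gene with QuasR and kept genes above an FPKM limit, before any model. The annotation, strand setting and tool versions were not given in the sources used here. Replicates were not pooled. The 2 other deposited tables hold the authors' own comparisons (fold changes, p-values and TE ratios) and were not used.

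Counts were fitted with edgeR 4.0.16 in R 4.3.3 (TMM factors within each assay, glmQLFit and glmQLFTest, no further filter), separately for the 4 RNA-Seq and 4 Ribo-Seq libraries, and over all 8 with an assay by genotype interaction for TE. The SE is the log2 fold change over the root of F. P-values were adjusted over 10105 genes and called at an FDR below 0.005. The study used RiboDiff for TE, which was not run here. The steps were tested on simulated counts. A pseudocount of 0.5 CPM was used for ratios and correlations. Intervals are 95%. Depth was 33757487 to 38145433 counts per RNA-Seq library and 1921641 to 4399542 per Ribo-Seq library. Positions, reading frames and frameshift sites come from GENCODE 44 lifted to GRCh37 (94.5% of the table's genes matched by name) and promoters from RefSeq on GRCh38.p14. Python 3.11.15 was used for these.

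The members and gene lists were chosen with earlier results of these data known. Named were the 9 members, XRN1, each pathway gene called in any of the 3 reported fits (RNA-Seq, Ribo-Seq, TE), EIF5A, DHPS and DOHH, and the 3 genes most correlated with ODC1 and with AMD1; other names are given as chosen after their values were seen or to complete a count of a list. Alternatives were RLE factors, library totals, DESeq2 1.42.0, edgeR's likelihood ratio and exact tests, a minimum of 10 counts, an FDR of 0.05, a replicate block, RNA-Seq thinned to Ribo-Seq totals, and each library left out.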

Additional observations from a re-analysis of the deposited data

Results flagged for a closer look

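The change in footprints and the change in mRNA differed for 2 of the named genes, by the interaction term of edgeR's quasi-likelihood test, in a table where 1.83% of all genes were called in TE. XRN1, the edited gene, had a TE difference of -4.09 (SE 0.220, FDR 1.66e-06), with mRNA higher by 3.01 and a footprint difference of -1.08 that was not called (FDR 0.00641). MRI1, an enzyme of methionine salvage, had a TE difference of -0.84 (SE 0.128, FDR 0.00233), with mRNA higher by 0.58 and a footprint difference of -0.26 (FDR 0.204). The MRI1 call was lost without WT RNA-Seq replicate 2, without any of the 4 XRN1-null libraries and with thinned mRNA counts.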

How the results depend on the processing

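SAT1, SMS and SRM kept their mRNA calls in all 9 alternatives, although the FDR of 0.05, a looser cut on the same fit, could not lose a call. With each RNA-Seq library left out, the log2 difference ran from 1.19 to 1.39 for SAT1. It ran from -0.69 to -0.66 for SMS and from -0.70 to -0.55 for SRM. The ODC1 mRNA call was lost with RLE factors (-0.26, FDR 0.00632), library totals (-0.22, FDR 0.0136) and thinned RNA-Seq (-0.30, FDR 0.0052), and the cause was not tested. At an FDR of 0.05, 2 members were higher in mRNA (SAT1 and AZIN1). In footprints 1 member was higher (SAT1) and 1 lower (SRM) under the likelihood ratio test, the exact test, an FDR of 0.05 and the replicate block. Values with an unstable sign were OAZ2 in mRNA (0.032 with library totals) and SMOX in footprints (0.0053 with RLE factors, 0.017 with library totals, 0.0015 under the likelihood ratio and exact tests).

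With each library left out in turn, the lone sample of a genotype being taken to vary like the others, members called in mRNA ranged from 1 to 2 higher and 2 to 5 lower, in footprints from 0 to 2 higher and 0 to 3 lower, and in TE 0 to 0. The other pathway genes ranged in mRNA from 1 to 6 higher and 2 to 9 lower, in footprints from 0 to 1 higher and 0 to 3 lower, and in TE from 0 to 1 lower. Differences that changed sign were OAZ2 in mRNA (-0.047 to 0.013), OAZ1 (-0.11 to 0.029), SMOX (-0.31 to 0.19) and AMD1 (-0.47 to 0.76) in footprints, and in TE ODC1 (-0.13 to 0.21), AMD1 (-0.30 to 0.91), SRM (-0.34 to 0.18), SMOX (-0.45 to 0.062) and SAT1 (-0.64 to 0.062).

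Of the other pathway genes, those higher in mRNA numbered 2 with library totals and with DESeq2, 3 under the likelihood ratio test, the exact test and the replicate block, and 5 at an FDR of 0.05. Those lower in mRNA, 6 in the reported fit, numbered 4 with library totals and with thinned RNA-Seq, 5 with RLE factors, and 7 with the replicate block and at an FDR of 0.05. Those lower in footprints numbered 1 at an FDR of 0.05 and with the replicate block. Those lower in TE numbered 2 with DESeq2, at an FDR of 0.05 and with the replicate block by culture, and 0 with thinned RNA-Seq, where MRI1 was lost.

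The labels give replicate numbers but do not say what they share. The replicate differences of WT and XRN1-null cells correlated over genes at 0.178 in RNA-Seq and 0.0742 in Ribo-Seq, and those of RNA-Seq and Ribo-Seq at 0.341 in WT and 0.0206 in XRN1-null cells. There were only 2 pairs each and no label of a shared culture or day, so samples were not treated as paired. With the replicate block SRM footprints differed by -0.72 (FDR 0.000107) and SAT1 footprints by 1.00 (FDR 0.000648). SMOX had 12 to 21 footprints per library and SAT1 26 to 86, which limits what their footprint and TE values can show.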
